A study of Mus musculus with 2 samples.

Results

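Interferon-stimulated genes are the genes that cells switch on when they sense interferon, and a set of 40 of them was followed here in regulatory and other CD4+ T cells of the mouse. The set was given as a list of gene symbols, and a gene was measured by all probe sets, the groups of short probes on the array, that the platform annotation pairs with that symbol alone. By this rule 38 of the 40 genes had a probe set, 67 probe sets in all, out of 18193 genes measured in the same way. Isg15 and Ifi44 had none and are named only. For reading, the set was split into 31 antiviral genes, 6 GTPases induced by interferon-gamma and 3 genes of antigen processing.

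The mice were of the DEREG strain, which makes green fluorescent protein (GFP) from the promoter of Foxp3, the defining transcription factor of regulatory T cells, so that these can be sorted by their fluorescence. After negative selection of CD4+ T cells, sorting by fluorescence to a stated purity of more than 99% gave CD4+GFP+FoxP3+ cells (GFP+ below) and CD4+GFPnegFoxP3neg cells (GFPneg below). Both groups carry the DEREG transgene, which fuses GFP to the diphtheria toxin receptor. Each was measured on 1 Affymetrix Mouse Genome 430 array, so there are 2 arrays, no replicates and no test, and every difference is one between these 2 arrays. The sources used here do not give the organ, nor the age, sex, number or treatment of the animals.

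Interferons are secreted warning signals. Type I interferons (alpha and beta) act through the receptor chains Ifnar1 and Ifnar2, and interferon-gamma, which T cells themselves make, through Ifngr1 and Ifngr2. Both receptors signal through Janus kinases. The type I response acts on genes through the interferon-stimulated response element (ISRE), and the interferon-gamma response mainly through the gamma-activated site (GAS). Antiviral genes are known as ISRE-driven, and the GTPases of the GBP and IRG families, which attack the vacuoles of intracellular pathogens, as strongly responsive to interferon-gamma. In T cells a low tonic level of these genes is kept even without infection.

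A signal floor of 63.52 was used to tell signal from background. It is the 90th percentile of the signals of 68 genes typical of other tissues, such as liver, muscle and brain, and a gene is called detected on an array where its signal exceeds it. Of the 38 genes, 33 were detected on both arrays, 2 on the GFPneg array only, and 3 on neither. Where 1 of both signals was under the floor it was raised to it, and the fold is a lower bound. A gene is represented by its brightest probe set, and by that rule 14 of the 68 genes of other tissues passed the floor too, so signals near it are weak evidence of expression. A difference is the log2 signal in GFP+ cells minus that in GFPneg cells, so that a negative value means lower in GFP+ cells.

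Both sorted populations had signals of the T cell genes Cd2, Cd3d, Cd3e, Cd3g, Cd4, Cd5 and Cd28, all above the floor. Foxp3 itself had a signal of 504 on the GFP+ and 173 on the GFPneg array, in the direction of the labels, with the GFPneg signal also above the floor. All 6 listed regulatory T cell markers, Foxp3 included, were above the floor on both arrays. They were higher in GFP+ cells by 1.71-fold (Il2ra) to 3.49-fold (Gpr83). Of 10 B cell markers, 9 were measured and 2, Cd22 and Cd79b, were above the floor, with summed signals of the 9 of 501 on the GFP+ and 534 on the GFPneg array. These 2 went opposite ways: Cd79b had 222 on the GFP+ and 70.8 on the GFPneg array, 3.13-fold higher, and Cd22 98.3 and 235, 2.39-fold lower. Of 12 myeloid and dendritic cell markers 4 were above the floor, with sums of 492.5 and 469. Adgre1 (94.3 and 79.1) and Mpeg1 (69.7 and 105.5) were above it on both arrays. Csf1r (83.9 and 43.5) and Itgam (64.9 and 39.1) were above it on the GFP+ array only. Of the other B cell, myeloid and dendritic cell markers, Cd79a, Ms4a1, Pax5, Lyz2, Cd14 and Itgax were among those under the floor on both arrays. Siglech, which marks plasmacytoid dendritic cells, the main producers of type I interferon, had signals of 4.8 and 9.9. Of 6 markers of those cells 3 were detected: Klk1 (158 and 149), Pacsin1 (306 and 345) and Lair1, which other leukocytes also express, with 121 and 28.4, at least 1.91-fold higher in GFP+ cells. The Klk1 signal came from a probe set that may match several transcripts, and its other probe sets were under the floor on both arrays. Of 8 markers of CD8 T and NK cells 1 was detected, and of 7 of erythroid cells and platelets 2. Whether other cells took part in the differences below was not tested. The ratio of signals from the 3′ and the 5′ end of a transcript, a measure of RNA integrity and copying that grows as they worsen, was 5.30 and 3.57 for Actb and 9.27 and 6.24 for Gapdh on the GFP+ and GFPneg array. The part of RNA quality in the differences below was not tested.

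The antiviral genes were mostly slightly lower in GFP+ cells, whereas the interferon-gamma-induced GTPases went both ways. Of the 24 antiviral genes detected on both arrays, 18 were lower and 6 higher, where 54.5% of all genes detected on both arrays were lower. Their median difference was −0.21 log2, beside −0.04 log2 for those genes. The 6 GTPases split into 3 higher and 3 lower, with a median of −0.05 log2. The 3 antigen processing genes were all lower, at a median of −0.26 log2. Most differences were small, as they were among all genes. Within 1.5-fold lay 26 of the 33 genes detected on both arrays, beside 6971 of all 8161 genes detected on both. Counting the 2 lower bounds as well, 35 genes in all, 2 were higher in GFP+ cells by 1.5-fold or more, against a background of 8.74% of all 10195 genes detected on at least 1 array, and 6 lay at least 1.5-fold below, against 7.75%. Past 2-fold lay 0 higher (background 1.74%) and 1 lower (background 1.72%), and that gene, Oasl2, is a lower bound.

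The spread between probe sets of the same gene was used as a yardstick. Probe sets of the same gene differed from each other with a standard deviation of 0.39 log2, from 8026 detected probe sets of 3160 genes, and with 0.38 log2 among 23 probe sets of 9 genes of this set. That spread holds no variation between mice, sorts or hybridisations. Of the 33 genes detected on both arrays, 10 differed by more than 0.39 log2 in either direction, where 29.7% of all genes detected on both did. In bulk RNA, fewer cells that express a gene and less RNA of it per cell cannot be told apart. Of the 7 T cell markers listed above, 5 were lower in GFP+ cells, among them Cd4 (257 and 415) and Cd3e (541 and 862). Cd2 (7415 and 6628.5) and Cd5 (1742 and 1515.5) were higher. The median of the 7 was −0.17 log2, and 54.5% of all genes detected on both arrays were lower.

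**Figure D1:**
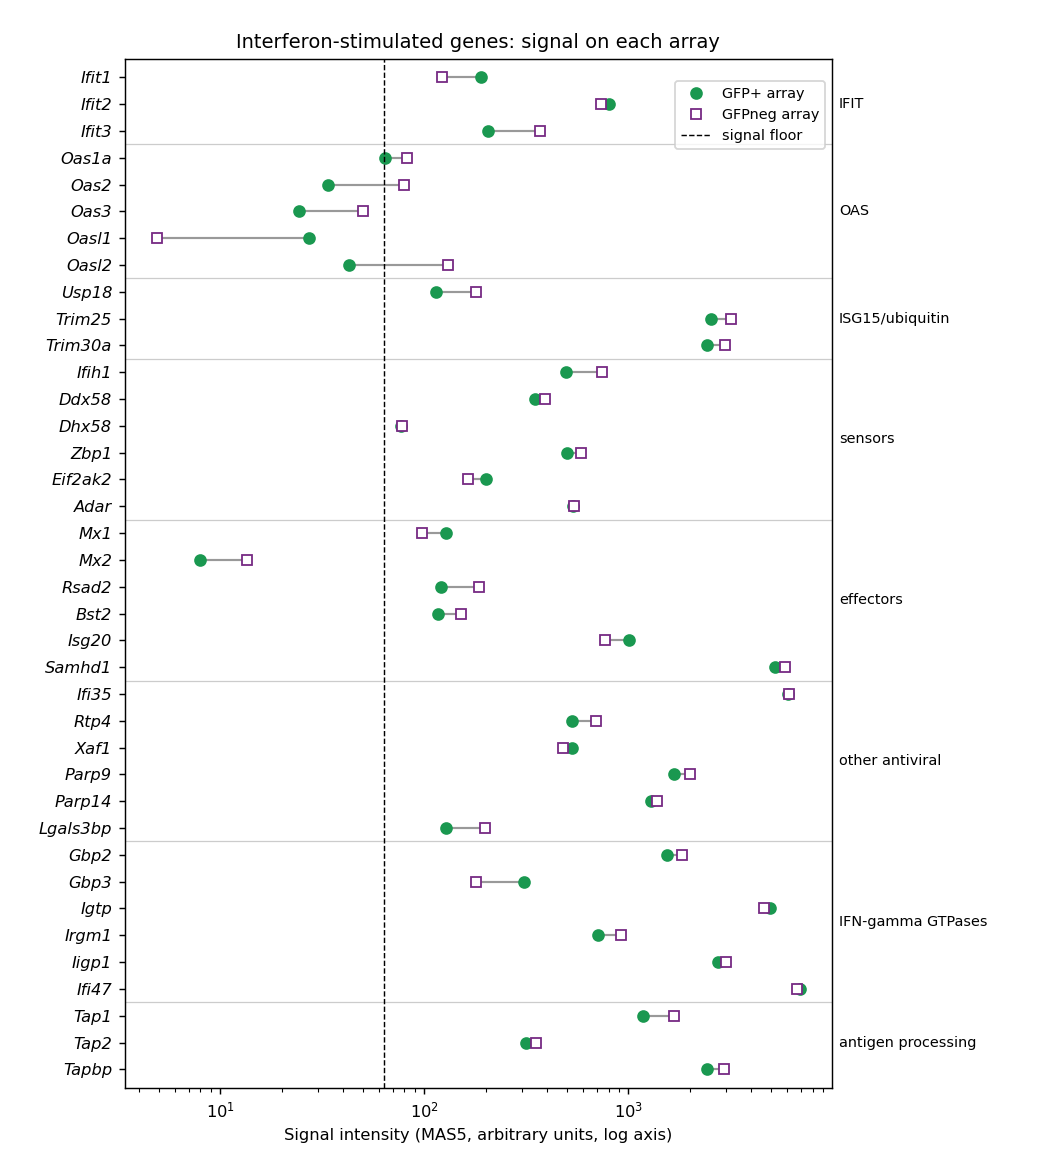
Signal intensity (MAS5, arbitrary units, log axis) of the 38 measured genes, 1 row per gene grouped by role, with the GFP+ array as filled circles, the GFPneg array as open squares and the signal floor of 63.52 as a dashed line. Most pairs lie close together, the OAS genes sit around or under the floor, and Ifit1 and Ifit3 are separated in opposite directions.

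The IFIT proteins bind viral RNA that lacks the cap marks of the host and block its translation. The 3 genes went different ways. Ifit1 had a signal of 189 in GFP+ and 122 in GFPneg cells, 1.55-fold higher. Ifit3, whose product binds and stabilises its IFIT partners, had signals of 205 and 371, 1.81-fold lower. Ifit2, whose product binds AU-rich RNA, had signals of 803 and 731, 1.10-fold higher. Each was measured by 1 probe set, so the opposite differences of Ifit1 and Ifit3, 0.64 and −0.86 log2, have no second probe set beside them. Both kept their direction after quantile normalization and loess.

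The promoters of Ifit1 and Ifit3 are shown because these paralogs differed in opposite directions while carrying the same motif letters. In RefSeq windows from 250 bases before to 50 after the start of transcription (build GRCm38.p6), the ISRE-like motif GAAANNGAAA was searched on both strands, where it reads TTTCNNTTTC on the other. Each promoter held 2 matches, and the same 2 sequences in the same order, TTTCACTTTC and then TTTCAGTTTC. In Ifit1 they begin 104 and 85 bases before the start, in Ifit3 156 and 122 bases before it. Both stretches are given 5′ to 3′ on the gene's strand, with the matches in capitals.

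Ifit1, chr19:34640770-34640828, plus strand: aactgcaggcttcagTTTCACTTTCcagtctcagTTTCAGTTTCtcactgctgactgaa
Ifit3, chr19:34583358-34583431, plus strand: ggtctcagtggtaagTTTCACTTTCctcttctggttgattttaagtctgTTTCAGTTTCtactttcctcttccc

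A match is a description of the letters and shows neither binding nor use of the site.

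The OAS genes encode enzymes that sense double-stranded RNA and make 2-5A, the second messenger that activates RNase L, and related proteins. Their signals were low on both arrays. Oasl2 had a signal of 42.8 in GFP+ and 130 in GFPneg cells, at least 2.05-fold lower. Oas2 had 33.8 and 79.4, at least 1.25-fold lower. Oas1a had 64.1 and 82.1, 1.28-fold lower, with the GFP+ signal barely above the floor. Oas3 (24.3 and 50.3) and Oasl1 (27.1 and 4.9) were under the floor on both arrays and have no fold. With the floor doubled the Oasl2 difference shrank to −0.04 log2, and Oas1a and Oas2 were no longer above it.

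Isg15 is a ubiquitin-like protein that is attached to other proteins after interferon, and Usp18 removes it and damps signalling at the type I receptor. Usp18 had a signal of 114 in GFP+ and 180.1 in GFPneg cells, 1.58-fold lower. Trim25, a ubiquitin ligase that acts on RIG-I signalling, had 2534 and 3189, 1.26-fold lower. Its second probe set gave 619 and 649. Trim30a, a restrainer of innate signalling, had 2427 and 2958.5, 1.22-fold lower, and 207 and 223 on its second probe set. The dimmest probe set of Trim25, under the floor on both arrays, had 49.6 and 4.5, and with all its probe sets averaged Trim25 was higher in GFP+ cells by 1.02 log2. On the brightest probe sets the 3 measured genes of this group were lower, 1 of them by at least 1.5-fold. Among all 8161 genes detected on both arrays 54.5% were lower, and 608 were lower by at least 1.5-fold.

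Of the 6 sensors of viral nucleic acid, 5 lay within 1.5-fold on their brightest probe set, where 6971 of all 8161 genes detected on both arrays did. Ifih1, which encodes MDA5, a sensor of long double-stranded RNA, had signals of 494 in GFP+ and 742 in GFPneg cells, 1.504-fold lower. Its difference of −0.59 log2 became −0.54 log2 after loess, inside 1.5-fold. Ddx58, which encodes RIG-I, had 349.6 and 392.3, and Zbp1, a sensor of Z-form nucleic acid, 498 and 588. Dhx58, which encodes LGP2, a regulator of both RNA helicase sensors, had 76.5 and 77.7. Eif2ak2, which encodes the kinase PKR that stops translation when it meets double-stranded RNA, went the other way with 199.9 and 164.5, 1.22-fold higher. Adar, an enzyme that edits adenosine in double-stranded RNA, had 532.5 and 541 on its brightest probe set, a difference of −0.02 log2 that turned positive after quantile normalization and loess.

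Less bright probe sets of 3 sensor genes gave larger differences in the lower direction. For Adar they gave 256 and 364 (−0.51 log2) and 91.6 and 180.2 (−0.98 log2). For Zbp1 the second probe set gave 82.4 and 158 (−0.94 log2). A further probe set of Ddx58 gave 42.0 and 116, at least 1.83-fold lower. What each of these probe sets detects along the transcript was not analysed here.

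Among proteins that act directly on viruses the genes went both ways. Rsad2, which encodes viperin, an enzyme that makes a chain-terminating nucleotide, had a signal of 121 in GFP+ and 185 in GFPneg cells, 1.54-fold lower. Its other 2 probe sets were under the floor. Bst2, which encodes tetherin, the protein that holds budding virus at the cell surface, had 116.5 and 151.5, 1.30-fold lower. Isg20, an exonuclease that degrades RNA, went the other way with 1009.7 and 765, 1.32-fold higher. Mx1, a dynamin-like GTPase against influenza virus, had 128 and 97.3, 1.31-fold higher, while Mx2 (8.0 and 13.6) was under the floor on both arrays.

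Samhd1, an enzyme that depletes the nucleotides needed for reverse transcription, had no settled direction. Its brightest probe set gave 5208 in GFP+ and 5883 in GFPneg cells, −0.18 log2. The other 4 probe sets, all above the floor, were higher in GFP+ cells, from 0.03 to 0.45 log2. The mean over its probe sets was 0.19 log2.

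Of the 6 other antiviral genes measured, 5 were lower and 1 higher, where 54.5% of all genes detected on both arrays were lower. Lgals3bp, a secreted glycoprotein, had signals of 127 in GFP+ and 197 in GFPneg cells, 1.55-fold lower. Rtp4, a chaperone of receptor transport that is induced by type I interferon, had 527 and 690.3, 1.31-fold lower. Parp9 had 1665 and 2002, 1.202-fold lower. Its relative Parp14, like it an ADP-ribosyltransferase family member, had 1290 and 1375 on the brightest probe set. The second probe set of Parp14 gave 197 and 535, 2.71-fold lower, the largest difference among all probe sets of the set detected on both arrays. Ifi35 was level at 6045 and 6095.5 on its brightest probe set, which may match several transcripts. The sign of that −0.01 log2 turned after quantile normalization and loess. Further probe sets of Ifi35 were lower, with 529.9 and 714.8 (−0.43 log2) and with 985.9 and 1079.9 (−0.13 log2). Leaving out probe sets that may match several transcripts moved Ifi35 to −0.43 log2. Xaf1, an antagonist of the apoptosis inhibitor XIAP, was 1.12-fold higher at 532 and 476.

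**Figure D2:**
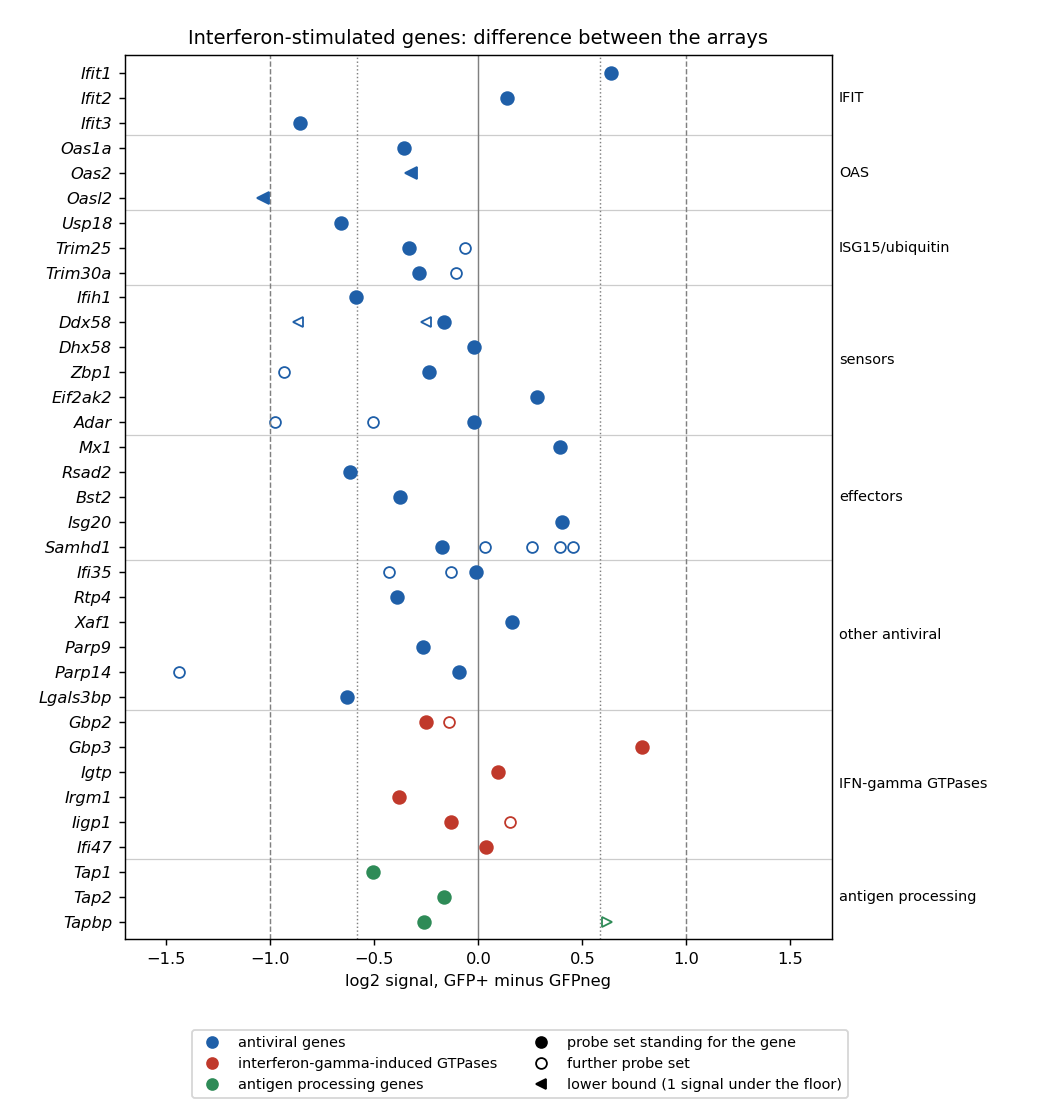
Difference of each probe set (log2 GFP+ minus GFPneg) for the 35 genes detected on at least 1 array, 1 row per gene, with dotted lines at 1.5-fold and dashed lines at 2-fold. Filled symbols stand for the gene, open symbols are further probe sets, triangles are lower bounds and colour gives the class. Most antiviral genes lie left of 0, and further probe sets lie away from the filled symbol for Adar, Parp14, Samhd1, Zbp1, Ddx58, Ifi35 and Tapbp.

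The interferon-gamma-induced GTPases were close to level, with 1 exception. Ifi47 had a signal of 6921.5 in GFP+ and 6738 in GFPneg cells, 1.03-fold higher. Igtp, also known as Irgm3, had 4953 and 4635, 1.07-fold higher. Irgm1, an IRG regulator that guards host membranes against the effector GTPases, had 709.8 and 924, 1.30-fold lower. Iigp1, an effector IRG that disrupts parasite vacuoles, had 2744 and 3011, 1.10-fold lower, and its second probe set went the other way with 769 and 692. Of the GBP family, Gbp2 had 1548.5 and 1841, 1.19-fold lower. Gbp3 stood apart from these with signals of 309 and 179, 1.73-fold higher, from a single probe set.

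The median difference of the GTPases was above that of the antiviral genes by 0.16 log2 over genes detected on both arrays, and by 0.20 log2 with the 2 antiviral genes that are lower bounds included. Over all alternatives that were run the gap was between 0.13 and 0.38 log2, positive in each. It rests on 6 GTPases, and without replicates it has no error. Within 1.5-fold lie 5 of the 6, as do 6971 of all 8161 genes detected on both arrays.

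The promoters of 4 GTPases are shown because they hold ISRE-like letters in a class known for its response to interferon-gamma. Capitals again mark matches of GAAANNGAAA on either strand and, for Igtp and for the antiviral gene Bst2, also of the GAS-like motif TTCNNNGAA, which reads the same on both strands. Where matches overlap, as in Gbp3, Irgm1 and Bst2, the capitals run together. In Bst2 the GAS-like match overlaps the first ISRE-like match.

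Gbp2, chr3:142620589-142620628, plus strand: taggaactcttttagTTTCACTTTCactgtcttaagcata
Gbp3, chr3:142559984-142560029, plus strand: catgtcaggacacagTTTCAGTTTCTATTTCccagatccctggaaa
Igtp, chr11:58199496-58199546, plus strand: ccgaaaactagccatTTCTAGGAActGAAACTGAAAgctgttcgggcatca
Irgm1, chr11:48871421-48871465, minus strand: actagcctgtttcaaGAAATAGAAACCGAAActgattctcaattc
Bst2, chr8:71537572-71537623, minus strand: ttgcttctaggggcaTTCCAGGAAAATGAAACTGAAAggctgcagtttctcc

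Of the 40 genes, 29 had a promoter window. The ISRE-like motif was found in 11 of 22 antiviral genes, in 4 of 5 GTPases and in 0 of 2 antigen processing genes, where 3.99% of all 27025 genes with a window hold it. The GAS-like motif was found in 8 of 22 antiviral genes and 1 of 5 GTPases, where 9.55% of all genes hold it. Genes with and without the ISRE-like letters were found in both directions. Of the 9 antiviral genes with a match and a signal above the floor, 2 were higher and 7 lower in GFP+ cells, and the median difference was −0.36 log2. Of the 9 without a match in their window, 3 were higher and 6 lower, and the median difference was −0.02 log2. Among all genes detected on both arrays 54.5% were lower. The gap between these medians is smaller than 0.39 log2, the spread between probe sets of 1 gene. Among the 9 without a match, less bright probe sets of Adar and Ifi35 gave lower differences than the brightest, and those of Samhd1 higher ones. Whether the letters go with the differences was not tested. Of the 8 detected antiviral genes without a window, 1 was higher and 7 lower, with a median of −0.25 log2. The 4 GTPases with a match had a median of −0.08 log2, and the 1 without a match in its window had 0.04 log2. The ISRE-like match of Gbp3 nearest to the 5′ end, TTTCAGTTTC, is the same as the second of Ifit1 and of Ifit3.

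The antigen processing genes, whose products carry peptides into the endoplasmic reticulum and load them onto class I molecules, were all lower by less than 1.5-fold. Among all genes detected on both arrays 54.5% were lower. Tap1, a subunit of the peptide transporter, had a signal of 1178 in GFP+ and 1675 in GFPneg cells, 1.42-fold lower. Its partner Tap2 had 314 and 352, 1.12-fold lower. Tapbp, which encodes tapasin, the bridge between transporter and class I molecule, had 2440.3 and 2928, 1.2-fold lower. A dim second probe set of Tapbp went the other way with 97.4 and 9.0.

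Other genes of class I antigen presentation were level between both populations. Of 14 listed, 11 were measured, all detected on both arrays; 3 were higher and 8 lower in GFP+ cells, and 10 lay within 1.2-fold, where 53.5% of all genes detected on both arrays did. The median was −0.04 log2. B2m, the invariant chain of class I molecules, had a signal of 15496 in GFP+ and 13316 in GFPneg cells, and the class I heavy chain gene H2-K1 had 19093 and 18249. Erap1, which trims peptides in the endoplasmic reticulum, had the largest difference with 433 and 353, 1.22-fold higher. The immunoproteasome genes Psmb8 (2610.2 and 2918) and Psmb10 (2164 and 2407) were 1.12-fold and 1.11-fold lower.

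**Figure D3:**
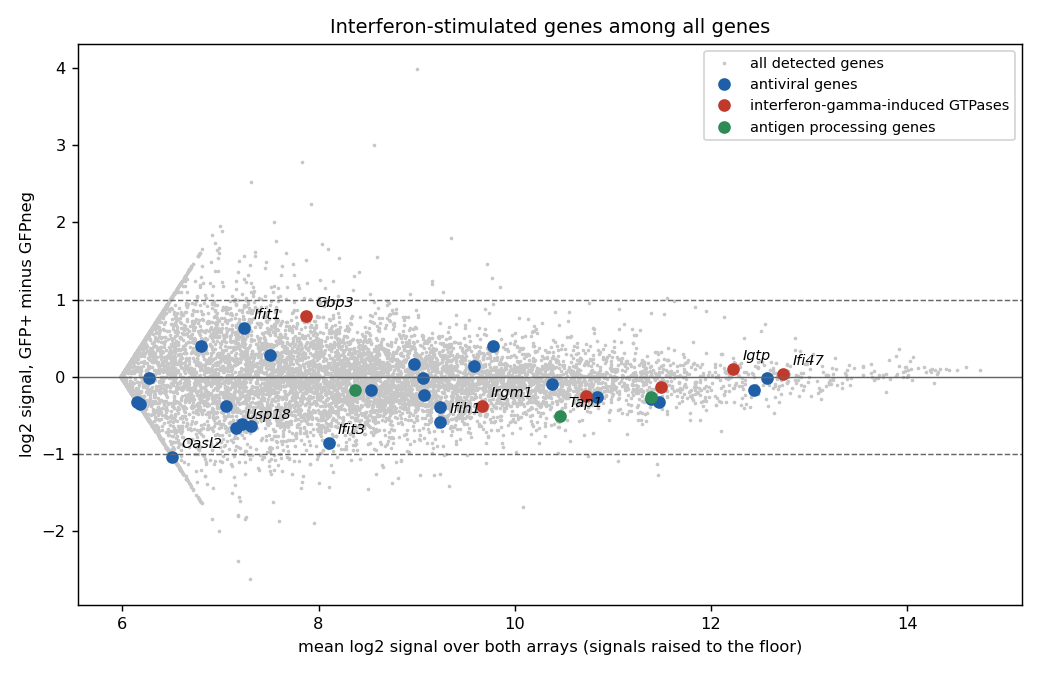
Difference (log2 GFP+ minus GFPneg) against the mean log2 signal of each gene, with all 10195 genes detected on at least 1 array in grey, the 35 interferon-stimulated genes in colour by class, and dashed lines at 2-fold. The coloured points lie within the grey cloud; Oasl2 is on its lower edge, where 1 signal was raised to the floor, and Ifit3, Gbp3 and Usp18 stand farthest from 0 among the set's genes detected on both arrays.

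The genes that make, receive and pass on the interferon signal were taken from a list of the pathway. Of the ligands, Ifng had a signal of 316 in GFP+ and 667 in GFPneg cells, 2.11-fold lower. Ifnb1 had 79.4 and 53.9, at least 1.25-fold higher at a level near the floor, and Ifna2 and Ifna4 were under it. Of the receptors, Ifngr1, the chain that binds interferon-gamma, had 345 and 677.5, 1.96-fold lower. Its partner Ifngr2 had 393 and 377, and the type I receptor chains Ifnar1 583 and 603 and Ifnar2 301 and 302. On these brightest probe sets Ifngr2, Ifnar1 and Ifnar2 differed by at most 1.04-fold. Less bright detected probe sets were higher in GFP+ cells by at most 1.21-fold, for Ifngr2 (96.6 and 79.6), Ifnar1 (220.7 and 191) and Ifnar2 (226.3 and 187.2).

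Further down the pathway most genes were close to level on their brightest probe sets. Jak1 (1676 and 1910), Jak2 (2275 and 2446) and Stat2 (129 and 131) differed by at most 1.14-fold, and Tyk2 (512 and 391.5) was 1.31-fold higher. A further probe set of Jak2 gave 511 and 881, 1.72-fold lower. Irf7, which amplifies the type I response and is itself induced by it, was 1.66-fold lower with 179.9 and 298. Irf1 (2451 and 2632), Irf8 (299.6 and 277) and Irf9 (479 and 411) differed by at most 1.17-fold. Of the inhibitors, Socs3 (605 and 778.5) was 1.29-fold, Ptpn6 (837 and 1006) 1.202-fold, Ptpn2 (1369.5 and 1567) 1.14-fold and Pias1 (713 and 766) 1.07-fold lower, while Socs1 (74.2 and 39) was at least 1.17-fold higher with its GFPneg signal under the floor. Other probe sets of these inhibitors differed from the brightest: that of Ptpn6 went the opposite way with 524 and 297, 1.77-fold higher, 1 of Pias1 too with 149 and 118, and those of Socs3 gave 174 and 316.5 and, level, 223 and 223.5.

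A further list of interferon-induced antiviral genes outside the set leaned the same way as the set. Of its 37 genes 33 were measured, and 28 were detected on both arrays. Of these, 20 were lower and 8 higher in GFP+ cells, with a median of −0.18 log2. Among all genes detected on both arrays 54.5% were lower, with a median of −0.04 log2. The list was chosen with earlier results of these data known. This list shares Irf7, Irf9 and Stat2 with the pathway list. The IFITM genes, which encode membrane proteins that block the entry of viruses, were all lower. Ifitm3 had a signal of 313.5 in GFP+ and 670.1 in GFPneg cells, 2.14-fold lower. Ifitm1 had 148 and 288, 1.95-fold lower, and Ifitm2, named after its values were seen, 329.9 and 469, 1.42-fold lower. Dtx3l, the partner of Parp9 in a ubiquitin ligase complex, had 696 and 1258, 1.81-fold lower, with a second probe set at 262 and 284. The brightest genes of the list, Slfn2 (3010 and 4154) and Ly6e (2133 and 2965), were 1.38-fold and 1.39-fold lower. Among the 8 higher genes Trim34a had the largest difference, with 518.4 and 327.1, 1.58-fold higher. It too was named after its values were seen.

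Most of the few further GTPases measured outside the set were lower in GFP+ cells. Irgm2 had a signal of 410.2 in GFP+ and 745 in GFPneg cells, 1.82-fold lower, Gbp7 1701 and 1800.2, Gbp8 855.5 and 900.1, and Gbp6 2974 and 2596, 1.15-fold higher. The second probe set of Gbp6 gave 1375 and 877, 1.57-fold higher. Of the 4 measured genes 3 were lower and 1 higher, with a median of −0.08 log2. Of all genes detected on both arrays, 54.5% were lower. Irgm1 and Irgm2, the IRG genes with the largest differences, are known as regulators of the effector GTPases, as is the level gene Igtp.

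**Figure D4:**
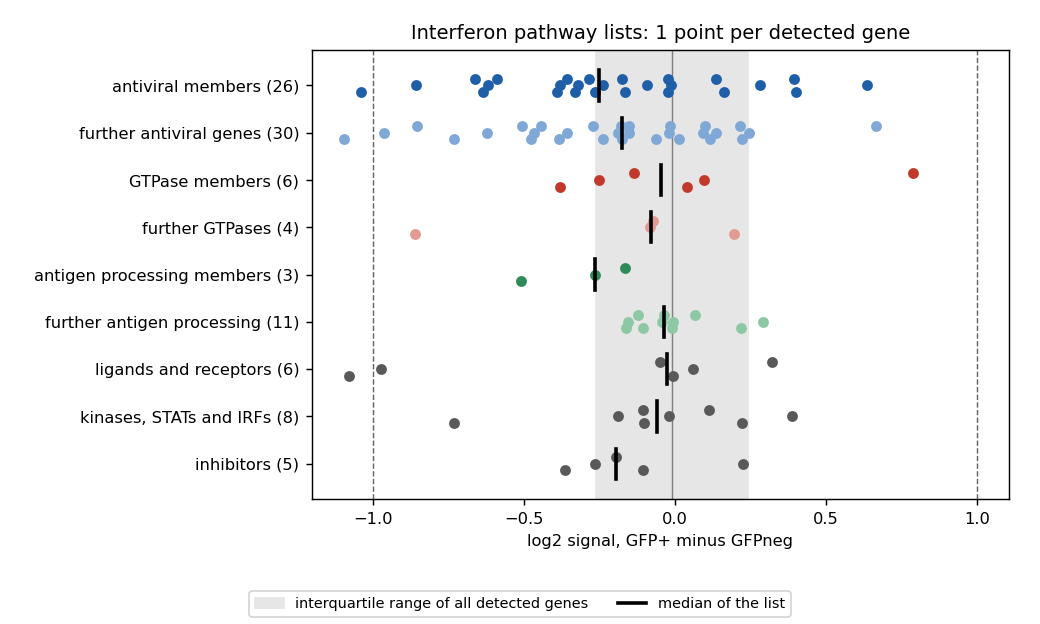
Differences (log2 GFP+ minus GFPneg) of the genes detected on at least 1 array in each list, 1 point per gene, number of genes in brackets, with a black bar at the median of the list, the interquartile range of all detected genes in grey and dashed lines at 2-fold. The medians of the antiviral members (−0.25 log2 with the 2 lower bounds included) and of the further antiviral genes (−0.18) lie left of 0, and that of the GTPase members (−0.05) near it.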

How the data were processed

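The deposited table gives for each array a linear intensity of every probe set, for which the submitters' processing notes name MAS5 as the authors' method. The sources used here do not give its version or detection calls. The 2% trimmed mean was 150.0 on both arrays, so the deposited intensities had been scaled to each other. No further normalization was applied.

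Of 45101 probe sets, 34945 carried 1 gene symbol in the platform annotation, 932 several, 9160 none and 64 were controls. Only those with 1 symbol were used. The gene identifiers of all 38 measured members were in the reference gene table, and 0 symbols changed. A gene was represented by its brightest probe set, by mean log2 signal. The floor of 63.52, from 117 probe sets of 68 of 76 listed tissue-restricted genes, was applied before log2 was taken. Genes entered with at least 1 signal above it (10195 genes). With 1 array per group no p-value, standard error or interval is given, and the number of arrays limits the precision. All members were accounted for. From the pathway lists all genes above the floor were named, and from the further lists up to 4 with the largest difference and the 2 brightest. The members and lists were chosen with earlier results of these data known. Steps were tested on simulated data. Motifs were counted per gene, over all its RefSeq windows of 300 bases. Python 3.11.15, numpy 2.4.6, pandas 2.3.3, statsmodels 0.14.6.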

Additional observations from a re-analysis of the deposited data

How the results depend on the processing

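Quantile normalization, loess, a floor doubled or removed, the mean over all probe sets of a gene and leaving out probe sets that may match several transcripts were tried, and 2 alternatives chosen after seeing the data: a floor without Mbp, which lymphocytes also transcribe, and only genes detected on both arrays. A value was taken as moved beyond 0.39 log2, the spread between probe sets of 1 gene, and a count beyond 1.5 times. The median over all genes stayed between −0.04 and 0.03 log2. The antiviral median stayed between −0.36 and −0.18 log2. The GTPase median lay between −0.05 and 0.02 log2, above 0 with probe sets averaged. With the floor doubled, 0 genes were at least 2-fold lower, 1 at least 1.5-fold higher and 3 at least 1.5-fold lower. Without a floor, 1 was at least 2-fold higher and 3 at least 2-fold lower. With probe sets averaged, 2 were at least 2-fold higher and 2 at least 2-fold lower, and by at least 1.5-fold 4 were higher and 9 lower. The antigen processing median was then 0.71 log2, since the dim probe set of Tapbp (97.4 and 9.0) entered its mean and Tap1 dropped out. Among genes detected on both arrays, 0 were at least 2-fold lower. Trim25, Samhd1, Iigp1 and Tapbp turned positive with probe sets averaged. In the same setting Rtp4 (−1.03 log2), Parp14 (−0.77), Ddx58 (−0.63) and Adar (−0.50) moved further down. No paired analysis was possible because each group has 1 array. Signals near the floor limit what can be said of the OAS genes.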
